A study of Homo sapiens with 3 samples.

Results

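Crowded clusters of distal accessible regions were examined in neurons that had been differentiated for 14 days with the neurogenic factor NGN2. The starting cells were KOLF2.1J, a widely used human iPSC line, so the data describe a single genotype. Accessibility was measured by ATAC-seq, in which the Tn5 transposase cuts exposed DNA and leaves sequencing adapters there. The 3 samples are labelled as replicates of 1 group, without a contrasting condition, and the authors merged them into a single list of 65234 distinct regions. The list is in hg38 coordinates, per the submitters' processing notes. A region was distal when its midpoint lay more than 1 kb from either end of every annotated gene. The clusters were chosen by position in the list alone: each autosome was divided into 50 kb bins, and all distal regions of bins holding 6 or more were kept. This gave 709 regions in 108 bins, out of 47265 distal regions on the autosomes (1.50%). The 108 bins were 0.374% of the 28839 bins with at least 1 distal region, in which the median was 1. Values per replicate were not analysed here, so the spread between replicates is unknown and no test was run. All differences below are descriptions of 1 pooled list.

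Distal accessible regions are often enhancers, short stretches of DNA that bind transcription factors and act on promoters at a distance. Developmental regulators are known for having many of them, spread through introns and through the gene-poor sequence around the gene. Some groups of enhancers packed closely together have been called super-enhancers and are typical of genes that set cell identity. Whether the clusters described here belong to that class was not tested.

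No genome sequence was used here, so the clusters' own sequence was read only where a member overlaps a 300-base window around an annotated transcription start, from 250 bases before to 50 after it (RefSeq, GRCh38.p14). Such starts lie inside genes, since the clusters are away from gene ends by definition. Among 676 members on the autosomes for which windows were used, 19 overlapped one (2.81%, Wilson 95% interval 1.81 to 4.35%), against 3.60% of the other distal regions (interval 3.43 to 3.78%). The strongest member of its bin was among these 19 in 4 bins. The windows of 4 genes for transcriptional and neuronal regulators are shown as examples, 5′ to 3′ on the strand of the gene. Capitals mark 4 words on either strand. CAGATG is an E-box bound by NEUROG and NEUROD factors. Another E-box is CAGCTG. The GC box is GGGCGG. The TATA box is TATAAA.
ZIC4, chr3:147392333-147392632, minus strand: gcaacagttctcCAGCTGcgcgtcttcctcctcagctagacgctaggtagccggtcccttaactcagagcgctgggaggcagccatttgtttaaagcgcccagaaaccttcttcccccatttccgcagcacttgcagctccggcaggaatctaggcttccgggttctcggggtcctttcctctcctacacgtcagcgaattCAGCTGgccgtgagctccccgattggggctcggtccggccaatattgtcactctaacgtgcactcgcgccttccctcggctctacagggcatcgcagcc
TRIM2, chr4:153204193-153204492, plus strand: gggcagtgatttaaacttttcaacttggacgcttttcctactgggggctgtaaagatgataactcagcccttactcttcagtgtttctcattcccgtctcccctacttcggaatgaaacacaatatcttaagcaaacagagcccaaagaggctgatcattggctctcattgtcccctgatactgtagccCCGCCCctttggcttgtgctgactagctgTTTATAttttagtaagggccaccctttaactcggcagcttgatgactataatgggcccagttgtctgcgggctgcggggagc
NFIB, chr9:14322338-14322637, minus strand: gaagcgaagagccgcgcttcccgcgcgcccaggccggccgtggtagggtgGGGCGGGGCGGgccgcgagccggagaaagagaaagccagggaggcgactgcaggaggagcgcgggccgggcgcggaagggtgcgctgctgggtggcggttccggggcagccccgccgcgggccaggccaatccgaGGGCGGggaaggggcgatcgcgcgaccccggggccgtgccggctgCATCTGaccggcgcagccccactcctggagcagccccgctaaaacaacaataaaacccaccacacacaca
KLF7, chr2:207134088-207134387, minus strand: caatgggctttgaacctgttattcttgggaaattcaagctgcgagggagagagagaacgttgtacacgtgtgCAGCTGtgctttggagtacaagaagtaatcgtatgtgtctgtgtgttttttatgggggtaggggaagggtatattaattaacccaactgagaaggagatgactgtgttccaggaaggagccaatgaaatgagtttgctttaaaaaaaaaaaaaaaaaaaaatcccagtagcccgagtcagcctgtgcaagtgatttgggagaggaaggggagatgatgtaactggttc
The ZIC4 window holds 2 copies of CAGCTG, and the KLF7 window holds 1. The NFIB window holds 1 NEUROG E-box and 3 GC boxes, of which 2 overlap by 1 base, and the TRIM2 window holds 1 GC box and 1 TATA box. These words are common: the NEUROG E-box is in 14.7%, the other E-box in 17.9%, the GC box in 44.9% and the TATA box in 11.6% of 34912 windows of annotated starts. Among 69 windows of coding genes that lie in dense bins, most of which overlap no member, the shares were 11.6%, 21.7%, 58.0% and 4.35%, in the same order, against 12.2%, 18.0%, 56.2% and 9.51% of 22025 windows of coding genes. A matching word describes the letters and says nothing of whether a factor was bound.

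Most dense bins were close to the limit of 6. Bins with exactly 6 distal regions numbered 77, followed by 18 with 7, 7 with 8, 5 with 9 and 1 with 20, and 299 bins lay just outside with 5. Members covered a median of 9.84% of their bin, with a range of 4.37 to 20.3%. The outermost members of a bin were 40.3 kb apart in the median (range 7.80 to 49.1 kb), out of the 50 kb of a bin. Gaps between neighbouring members had a median of 4568 bp, with quartiles at 1611 and 8826 bp.

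Tag counts differed widely among the members of a bin. Each summit's tag count was worked out from a pair of values that the authors deposited for it, the fold enrichment and the p-value. The strongest member of a bin had 4.15 times the tags of the weakest in the median bin, and held 29.1% of the summed summit tags. The highest such share, 51.9%, was in the bin at AFF1. Summed over its members, a bin collected from 883 to 10542 tags, with a median of 2072.

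Dense bins were unevenly spread over chromosomes. Chromosome 6 held 12, chromosomes 3 and 7 held 9 each and chromosome 4 held 8. As a share of a chromosome's distal regions, members were most frequent on chromosomes 20 (2.63%), 6 (2.49%) and 17 (2.47%). The shares on chromosomes 4, 7 and 3 were 2.32%, 2.12% and 1.76%, against 1.50% over all autosomes. Of the 70 members on chromosome 4, however, 20 and 9 lie in adjoining bins beside its centromere. A dense bin of chromosome 20 also lies towards a centromere. Shares by chromosome without these bins, described below, were not computed, so the order of chromosomes may depend on them. Chromosomes 18, 21 and 22 had 0 dense bins, with 1231, 475 and 653 distal regions. Crowding reached beyond the bins: the bins directly before and after a dense bin held 1.99 ± 1.65 and 2.11 ± 2.36 distal regions (mean ± SD over 108 bins), against a mean of 0.823 over all 57436 autosomal bins. At 500 kb on either side the means were 0.991 and 1.09. In 4 places 2 dense bins adjoined.

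**Figure D1:**
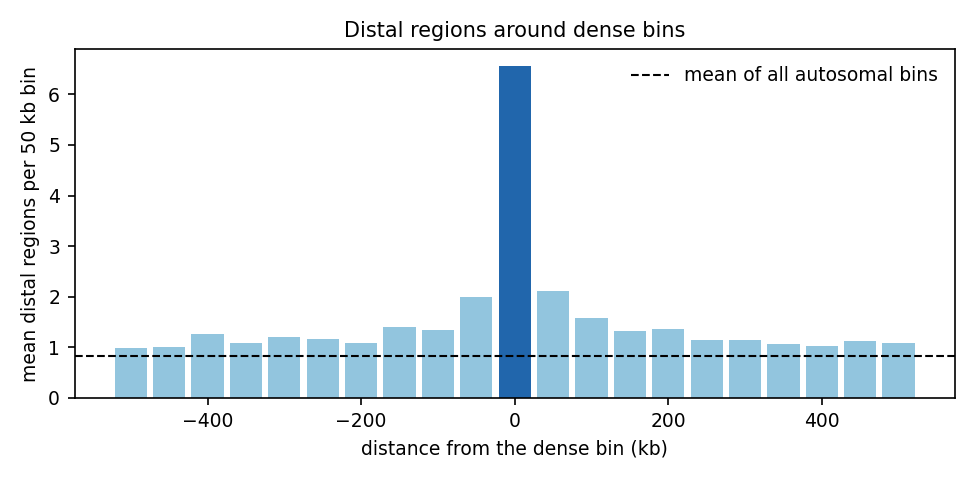
Mean number of distal regions per 50 kb bin (vertical axis) at distances up to 500 kb from the 108 dense bins (horizontal axis, kb; the dark bar is the dense bin itself, at 6.56, and the dashed line is the mean of all autosomal bins, 0.823). The adjoining bins stand near 2 and the farther ones between 0.991 and 1.57.

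The most crowded bin stood apart from all others. It lies on chromosome 4 from 49100001 to 49150000 and held 20 distal regions. No coding gene overlaps it. CWH43 ends 37.9 kb before it, and the next coding gene after it, DCUN1D4, begins 2684 kb away. This is the sequence beside the centromere of chromosome 4, and the bin before it, where CWH43 ends, held 9 more, packed into 7.80 kb. Members of the larger bin were narrow, with a median width of 343 bp. Their tag counts ran from 112 through a median of 438.5 to 1011, in a raised local background with a median of 135.5 tags. Another 2 dense bins, on chromosome 2 from 89800001 to 89850000 within the annotated IGK immunoglobulin locus and on chromosome 20 from 25850001 to 25900000, also lie towards a centromere.

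These 4 bins were set apart, after their values were seen, as the 4 with the narrowest members. Their median widths were 218, 219, 343 and 463 bp, against 468 to 1159 bp in the others, so the fourth stands close to the rest. Together they held 44 members, of which 0 lay inside a coding gene, and 97.7% had the summit of another region within 5 kb. Repeats and mappability were not analysed here. Results are therefore also given for the 665 members of the other 104 bins.

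**Figure D2:**
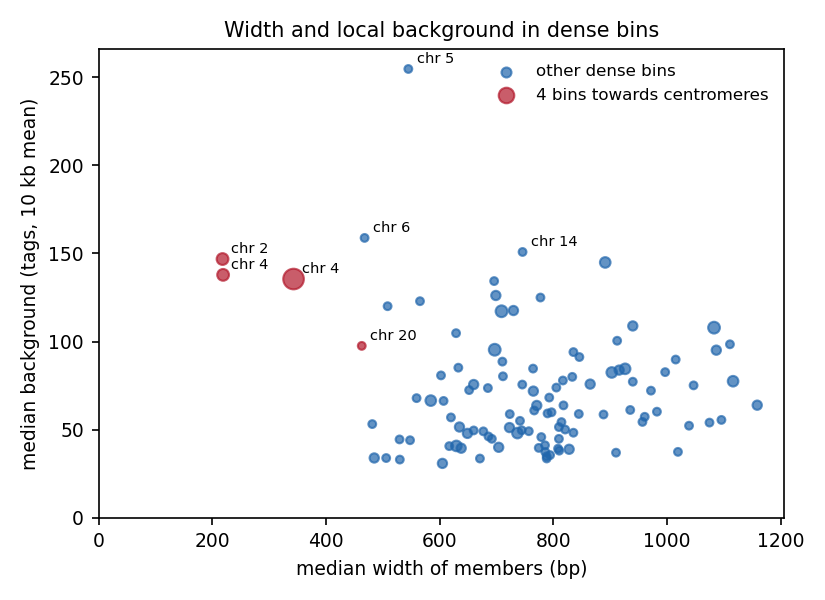
Median width of the members (horizontal axis, bp) and median local background (vertical axis, tags) of the 108 dense bins; the area of a point grows with the number of members. The 4 bins towards centromeres (red) lie at the narrow end with backgrounds of 97.6 to 146.8 tags, and the bin on chromosome 5 beside MEF2C has the highest background, 254.7 tags.

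Among the other 104 bins, 3 held 9 members. Next to ZIC4 and ZIC1, neighbouring genes for zinc finger factors of the developing cerebellum and dorsal neural tube, chromosome 3 from 147350001 to 147400000 held the most summed tags of these. The tags of its 9 members ran from 213 through a median of 538 to 1529, and they covered 20.3% of the bin, the highest share of all 108. The member with the most tags, chr3:147396399-147397766, lies inside ZIC4 with 1529 tags (exact Poisson 95% interval 1453 to 1608, for counting error only) and a fold enrichment of 7.36. The member that holds the ZIC4 window printed above, chr3:147392008-147392803, had 895 tags but a fold enrichment of only 3.49, over a local background of 256.0 tags. Of the 9 members 4 lie inside ZIC4, 1 lies inside LOC124909494, and the others are in no coding gene. ZIC1 begins 9.37 kb past the bin.

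The other 2 had all their members inside 1 gene. In SPSB4, which encodes an adaptor of a ubiquitin ligase, tags ran from 258 through 329 to 802, with the most at chr3:141094782-141095851. In ZFHX3, the gene for a large homeodomain and zinc finger factor, tags ran from 142 through 371 to 681, with the most at chr16:73052524-73053102, 269.9 kb from the nearest end of a coding gene. ZFHX3 spans 1109 kb and contains 44 distal regions, so its cluster is one crowded stretch of a gene with many.

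Bins with 8 members lay between LRRC74A and IRF2BPL on chromosome 14 and inside TRIM2, PTPRN2, NHSL1, CDK14, TOM1L2 and partly CXXC5. The chromosome 14 bin, from 76900001 to 76950000, overlaps no coding gene and was among the strongest, with 314, 536 and 1300 tags as its lowest, median and highest. Its strongest member, chr14:76946817-76948487, is 1671 bp wide and lies 76.9 kb from the nearest coding gene end, that of IRF2BPL. In TRIM2, which encodes a ubiquitin ligase known to bind neurofilament light chain, tags ran from 114 through 478.5 to 1032. The strongest TRIM2 member is chr4:153210494-153211331, and the member at the window printed above, chr4:153204181-153205442, had 618 tags and a fold enrichment of 7.80. In PTPRN2, the gene for a phosphatase-like protein of dense-core vesicles, the strongest member, chr7:157690561-157691460, had 762 tags. In NHSL1, whose product binds the WAVE actin regulator, the strongest, chr6:138572220-138572925, had 821 tags and overlaps an annotated start inside the gene. NHSL1 has a second dense bin directly before the first, with 6 members of 111 to 428 tags.

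The cluster in CDK14, a cyclin-dependent kinase gene of Wnt signalling, had 133 to 807 tags per member, and that at CXXC5, a zinc finger gene, had 181 to 523. TOM1L2, an endosomal trafficking gene, held the weakest of the bins with 8, at 100 to 286 tags. So bins with the same number of regions differed in summed tags, from 1605 in TOM1L2 to 4875 beside IRF2BPL.

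**Figure D3:**
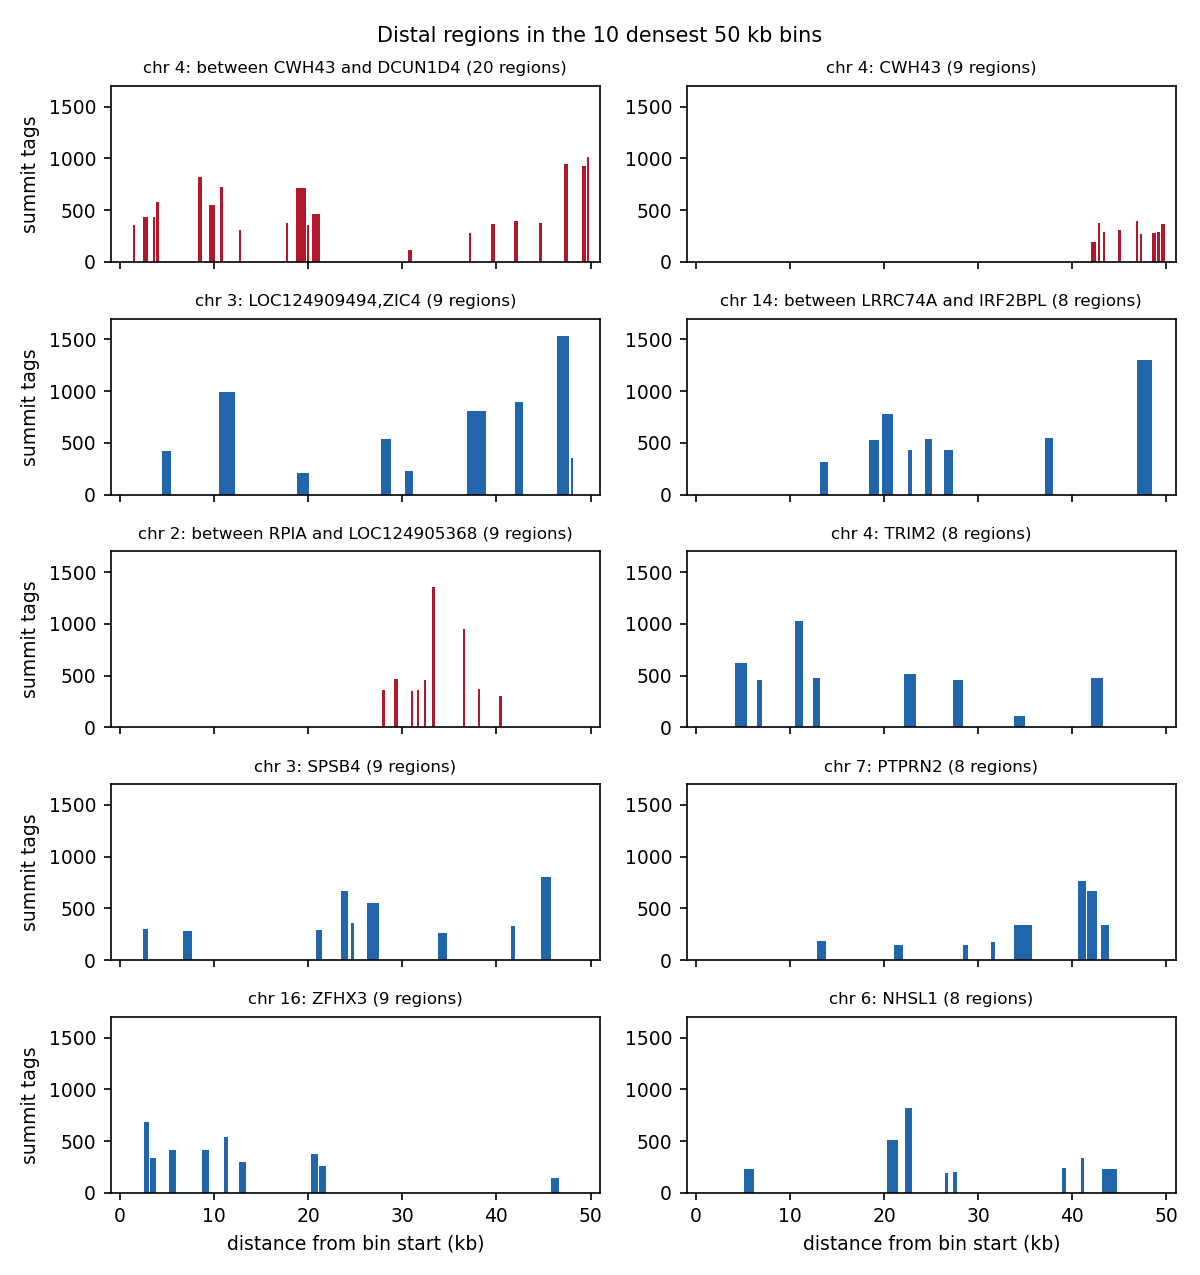
Members of the 10 most crowded bins, ranked down the left column and then the right; each bar is 1 region at its distance from the bin start (horizontal axis, kb), as wide as the region (narrow ones are drawn at a least width of 0.25 kb) and as high as its summit tags (vertical axis). Red marks bins towards centromeres: the regions there are thin, and those of the chromosome 2 bin sit within 12.7 kb, whereas those at ZIC4 and TRIM2 are wider and spread over 43.7 and 39.0 kb.

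At 7 members there were 18 bins. Hedgehog, Notch and ephrin genes were among them: GLI2, a transcription factor of Hedgehog signalling (176 to 1393 tags), MAML3, a coactivator of Notch (114 to 953 tags), and the neighbouring ephrin genes EFNA4 and EFNA3 with ADAM15, DCST1 and the read-through EFNA4-EFNA3 (209 to 1616 tags). Transcriptional regulators were NFIX with LYL1 (167 to 491 tags), RUNX1T1, a corepressor gene (166 to 691 tags), and ZMIZ1, a coactivator gene (209 to 610 tags). MYO10, the gene for a myosin of filopodia, held the member with the highest fold enrichment of all 709, chr5:16713124-16714177, at 14.9 with 1532 tags. CDKN1C, an imprinted gene for an inhibitor of the cell cycle, shared its bin with SLC67A1 (241 to 624 tags), and CELSR2, a cadherin of planar polarity, shared its bin with PSRC1 and MYBPHL (317 to 521 tags).

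Further bins with 7 members overlapped TACC1, SLC35F1, ARHGEF38, ALPK1, FNDC3B and NECAB1, NXN with TIMM22, and GMPPA with ASIC4, CHPF, TMEM198 and OBSL1. NECAB1, a neuronal calcium-binding protein gene, had the lowest summed tags of any dense bin, at 883. The ALPK1 bin lies 163.5 kb from NEUROG2, the gene for the factor with which these neurons were made. In all, 27 of the 31 bins with 7 or more members overlapped a coding gene, and in 20 every member lay inside one. Over all 108 dense bins these counts were 89 and 57. The same counts for bins with fewer distal regions were not made, so whether 27 of 31 is unusual is not known.

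The strongest single member belonged to a bin with 6. It is chr5:88660527-88661610, with 2323 tags and a fold enrichment of 9.31, in the bin from 88650001 to 88700000 that contains MIR9-2 and ends 17.1 kb before the span of MEF2C. The others in this bin had 881, 991, 980, 994 and 405 tags, so 5 of its 6 members had at least 881. MIR9-2 is 1 of the genes for miR-9, a microRNA of neural progenitors and neurons, and MEF2C encodes a transcription factor of neurons and muscle. The mature miR-9-5p, with its seed (bases 2 to 8) in capitals, is printed from RefSeq (GRCh38.p14), where it lies at chr5:88666902-88666924 on the minus strand.
hsa-miR-9-5p: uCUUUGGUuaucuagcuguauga
Around SOX2, a factor of neural progenitors and pluripotent cells, the bin on chromosome 3 from 181700001 to 181750000 held 6 members with 262, 352, 785, 571, 449 and 148 tags. None lay inside SOX2, which is 2.51 kb long. The region at the start of SOX2, chr3:181710110-181712102, had 856 tags and is not a member.

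Regions in crowded bins had more tags than other distal regions but lower fold enrichment. The median member had 291 tags at its summit (quartiles 195 and 462), against 200 (143 and 314) in the 46556 others on the autosomes. On the log2 scale the medians differed by 0.54. Its fold enrichment was 4.48 (3.27 and 6.15), against 5.11 (3.95 and 7.02), a difference of -0.19. Fold enrichment is the tag level at the summit over the local background, and the background values run in steps of 0.015 tags, which is 1 tag of 150 bp spread over 10 kb, a window that takes in close neighbours. The median background was 61.7 tags for members and 36.4 for the others, a difference of 0.76.

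The opposite directions held on most chromosomes. Tags were higher in members on 18 of the 19 autosomes that have any, and fold enrichment was lower on 16 of 19. The log2 difference in tags averaged 0.52 ± 0.33 and that in fold enrichment -0.19 ± 0.14 (SD over chromosomes, n = 19). Without the 4 bins towards centromeres the differences were 0.50 and -0.18.

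Both changed in steps with crowding, also below the limit of 6. From bins with 1 distal region to bins with 6 the median tags went from 185 through 199, 214, 229 and 253 to 275.5. The background rose at each step from 32.9 to 57.0 tags, and fold enrichment fell at each step from 5.23 to 4.59. Bins with 7 broke the order of tags, with a median of 252.5. Bins with 9, of which 2 lie towards centromeres, had 362 tags over a background of 132.7.

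**Figure D4:**
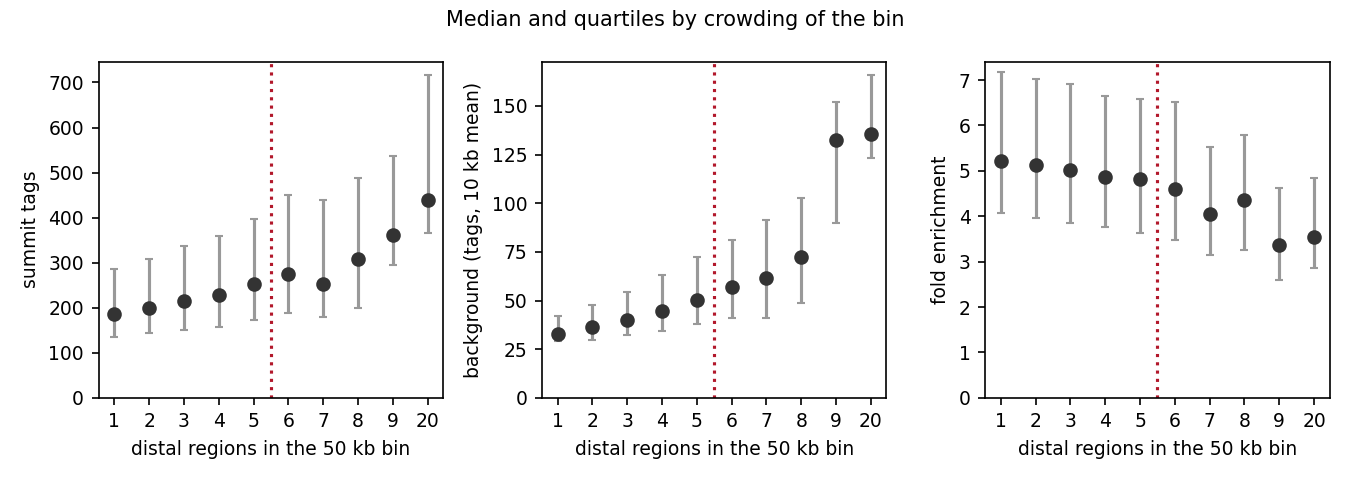
Median (points) and quartiles (bars) of summit tags, local background and fold enrichment (vertical axes) for distal regions by the number of distal regions in their 50 kb bin (horizontal axis; bins with 6 or more, right of the dotted line, are the clusters). Tags and background are higher and fold enrichment lower in more crowded bins, except for tags at 7 and fold enrichment at 8 and 20.

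The difference in fold enrichment was smaller among regions with the same number of close neighbours. Neighbours were counted between regions, by 1 summit each, so further summits of the same region do not count. For regions with no other region's summit within 5 kb, fold enrichment was 5.41 in 239 members and 5.34 in 36528 others. This is a log2 difference of 0.02, while tags were 238 and 189, a difference of 0.33. For regions with exactly 1 such neighbour, leaving out the 4 bins, fold enrichment was 4.38 in 264 members and 4.51 in 8669 others, a difference of -0.04, and tags were 275.5 and 234, a difference of 0.24. The summit of another region lay within 5 kb for 66.3% of members and 21.5% of the others. Members were of similar width to other distal regions, with medians of 755 and 797 bp, and 778 bp without the 4 bins. A single summit was recorded in 46.3% of members and 39.1% of the others.

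Members lay inside coding genes more often than other distal regions. The share was 476 of 709 (67.1%, Wilson 95% interval 63.6 to 70.5%, for counting error only), against 49.7% of the others (interval 49.2 to 50.1%). Without the 4 bins it was 71.6%. The share was 45.3% in bins with 1 distal region, 58.5% in bins with 5, 65.2% in bins with 6 and 85.7% in bins with 7. It was lower again beyond that, at 78.6% in bins with 8, 51.1% in bins with 9 and 0% in the bin with 20, and 2 of the 5 bins with 9 and the bin with 20 lie towards centromeres. It went by whole bins: in 57 of the 108 every member was inside a coding gene, and in 24 none was. The interval for members counts them as separate draws and is too narrow for that reason. With bins shifted by 25 kb the share was 58.6%, below that interval. The genes were as long as those that contain other distal regions, with medians of 197.1 and 195.4 kb over regions. The nearest end of a coding gene was 47.0 kb from the median member and 46.5 kb from the median of the others. The gene table gives no exons, so exonic, intronic and untranslated positions were not separated.

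Accessible coding gene ends were not clearly more frequent in dense bins. A region within 1 kb of a coding gene end was present in 24 of 108 dense bins (22.2%, Wilson 95% interval 15.4 to 30.9%) and in 18.8% of 28731 bins with 1 to 5 distal regions. Of the bins that contain such an end it was 24 of 40 (60.0%, interval 44.6 to 73.7%) and 52.8%. Among coding genes on autosomes with start windows, 71.7% had an accessible annotated start. The share was 80 of 97 (82.5%, interval 73.7 to 88.8%) for genes that overlap a dense bin, and 71.6% for genes with none within 50 kb. Genes overlapping a dense bin were longer, with medians of 62.3 and 25.8 kb. By length, genes up to 10 kb had an accessible start in 80.0% (12 of 15, interval 54.8 to 93.0%) with an overlapping dense bin and 51.3% with none nearby. From 10 to 30 kb the shares were 68.2% (15 of 22) and 70.6%, and from 30 to 100 kb 94.4% (17 of 18) and 81.5%. From 100 to 300 kb they were 84.0% (21 of 25) and 86.3%, and above 300 kb 88.2% (15 of 17) and 92.2%. The share was thus higher for genes with a dense bin in 2 of 5 length classes and lower in 3, with at most 25 such genes in a class.

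Of 179 genes in lists of neural and other genes, 4 overlap a dense bin (2.23%), beside 120 of all 18969 autosomal coding genes (0.633%). These 4 came from 2 of the 10 lists, and the counts depend on where bins begin. A longer gene spans more bins, and gene length was not matched between lists or with all coding genes. Median lengths ran from 3.05 kb for the proneural and neuronal bHLH factor genes to 240.9 kb for the axon guidance and adhesion genes. Neural progenitor genes had 2 of 14, SOX2 and MSI1, which encodes an RNA-binding protein of progenitors. With bins shifted by 25 kb, or a limit of 2 kb from gene ends, this list had 0. The MSI1 bin contained the member with the second highest tag count of the 709, chr12:120361304-120362431, with 1925 tags and a fold enrichment of 11.9. Axon guidance and adhesion genes had 2 of 35, SLIT1 and SLIT3, which encode secreted ligands of ROBO receptors, with strongest members of 578 and 562 tags. With shifted bins they had 1, and over any 50 kb window with 6 or more distal regions, an alternative chosen after the data were seen, they had 7 and the progenitor genes 3. The share of all coding genes reached is not given for these alternatives, so 0.633% is no reference for their counts.

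Counts were 0 of 16 proneural and neuronal bHLH factor genes, 0 of 31 neuronal homeodomain and zinc finger factor genes, 0 of 16 pan-neuronal genes and 0 of 20 genes of the Notch pathway and ID genes. They were also 0 of 12 glial, 0 of 9 pluripotency, 0 of 14 proteasome and 0 of 12 non-neural tissue genes. Some of these zeros depend on bin placement. Over any 50 kb window the bHLH factor genes had 1, the homeodomain and zinc finger factor genes 4, the pan-neuronal genes 2 and the Notch pathway and ID genes 1. With bins shifted by 25 kb the first 2 of these lists had 1 each. Without the share of all coding genes under these alternatives, the counts show only that the zeros are not fixed. In the windows, ZEB2, a zinc finger factor gene, met a run of 12 distal regions in overlapping windows, MAP2, a microtubule protein gene, a run of 8, and SYT1, a synaptic vesicle protein gene, a run of 7. These 3 were named after their values were seen. The other genes of these lists that met a run were INSM1 (9 distal regions), ID2 (7), MEIS1 (6), CUX1 (6) and BHLHE23 (6). The glial, pluripotency, proteasome and non-neural lists had 0 under both alternatives.

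Within 50 kb of the gene, where 1.08% of autosomal coding genes have a dense bin, 1 more listed gene was reached, LFNG, which encodes a glycosyltransferase that modifies Notch, 12.5 kb beyond its bin. With counts this small the lists cannot be ordered. No dense bin lay within 1 Mb of MAPT, the tau gene whose control the study addressed. Of the 38 distal regions there, at most 3 shared a bin, and the nearest dense bin was 11.2 Mb away, in MSI2.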

How the data were processed

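The members, gene lists and settings were chosen with earlier results of these data known. Per the labels, 1 peak list, the optimal set by irreproducible discovery rate, covers all 3 samples; the caller and its version are not given in the sources used here. The authors deposited a linear ratio (fold enrichment), a −log10 p per summit, a summit offset in bp and a whole-number score (scaling not stated). Depth per sample is unknown. Entries (145092) with equal bounds were merged, keeping the one with the highest −log10 p. Tag counts were recovered as whole numbers k with (k + 1)/(b + 1) equal to the ratio and the Poisson chance of more than k tags, given background b, equal to p. Every entry matched within 0.00079 units of −log10 p (next whole number: median 0.266). Counts ran from 58 to 3783, and 99.8% of backgrounds above the floor of 29.2 tags were multiples of 0.015, which is 1 tag of 150 bp over 10 kb. PCR tags are not independent molecules, so intervals cover counting error only. Gene ends came from RefSeq GRCh38.p14 (58957 genes), after leaving out 718 rows that carry scaffold coordinates; start windows on chromosome 8 were not used. Genes named follow a rule: those overlapping, or else next to, bins of the highest count levels reaching at least 20 bins, the strongest member of the first 10 (ties by summed tags), up to 6 listed genes per list, and MAPT; the named bins with 6 members at MIR9-2 and SOX2 and the 4 printed windows were chosen after their values were seen. One bin that the rule names is not reported here. Of 181 listed genes, 179 matched an autosomal coding gene. Alternatives are in the closing section. Python 3.11.15, numpy 2.4.6, scipy 1.17.1, pandas 2.3.3 and matplotlib 3.10.9 were used, and the code was tested on simulated data.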

Additional observations from a re-analysis of the deposited data

How the results depend on the processing

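Membership depends on where bins begin. Shifting all bins by 25 kb gave 691 members in 105 bins, of which 214 were the same regions (30.2% of the 709), and 58.6% of the members then lay inside coding genes. Any 50 kb window with 6 or more, an alternative chosen after the data were seen, gave 2429 regions in 331 runs, with 63.3% inside coding genes, log2 differences of -0.15 in fold enrichment and 0.40 in tags, and 18 listed genes reached in place of 4. Counts of listed genes in this section stand without the share of all coding genes reached under the same setting. With 5 or more per bin there were 2204 members in 407 bins (61.3%, -0.13, 0.42, 17 listed genes), and with 8 or more 121 in 13 (55.4%, -0.41, 0.85, 0 listed genes). Those 121 include bins of 20, 9 and 9 members towards centromeres, with 0 members inside coding genes. The limit of 8 was not run without them. Bins of 100 kb with 12 or more gave 75 in 5 (62.7%, tags 0.84, 0 listed genes). A score of at least 830 left 308 in 46 (-0.29, 0.64, 2 listed genes). Above the median fold enrichment there were 0 members, 0 bins and 0 listed genes. Counting all summit entries gave 31135 entries in 4096 bins (56.3%, 0.31 in tags, 81 listed genes), and the difference in fold enrichment shrank to -0.0040. With ends of coding genes only, 59.3% lay inside coding genes, and without the 4 bins towards centromeres, also chosen later, 71.6%. A limit of 2 kb from gene ends left 1 listed gene. Beyond the number of regions that each setting admits, the cause was not tested. The difference in tags was positive and that in fold enrichment negative in each alternative that left members. Summits in place of midpoints, a 500 bp limit, scaffold genes kept and inner starts left out moved none of the 6 summary results beyond its limit, nor did averaging fold enrichment over summits. For counts these limits were wide: 500 bp from gene ends gave 940 members in 144 bins. Also taken as unmoved were 1044 members in 159 bins with ends of coding genes only, and 523 in 79 with 2 kb. No paired analysis was possible because there is a single group and the peak list used covers all its replicates together. Leaving out a replicate was not possible either.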

Other observations

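Several related genes each had a dense bin; they were noticed after the values were seen and were not tested. Both GLI2 and GLI3, transcription factors of Hedgehog signalling, were among them, and the 6 members in GLI3 had 194 to 844 tags. So were ZFHX3 and ZFHX4 (190 to 582 tags in the ZFHX4 bin), and NFIX and NFIB, nuclear factor I genes (162 to 1487 tags in the NFIB bin). MSI1 and MSI2 encode related RNA-binding proteins, and MSI2 had 2 dense bins with 12 members in all. ZMIZ1, ZBTB16 and NHSL1 also had 2 dense bins each, adjoining in all 3 genes. ZNF608 had 1 dense bin inside it, with 210 to 952 tags, and another 151.2 kb beyond its end with 104 to 684.

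In the gene-poor sequence on the lower-coordinate side of POU3F2, which encodes a neuronal POU factor, 2 dense bins lay 184.6 and 784.6 kb from the gene with no coding gene overlapping either. The nearer had 1 member of 101 tags and 5 packed from 98636953 to 98644528 with 372 to 1075 tags, and its median background of 158.8 tags was the second highest of the 108. POU3F2 was named after the values were seen, and it has no dense bin within 50 kb. The share of coding genes with a dense bin at such distances is not given, and a link of these bins to POU3F2 was not tested. The X chromosome, outside the clusters by rule, had 1103 distal regions and at most 5 in a bin.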
